A study of Mus musculus with 8 samples.

Results

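Markers of the choroid plexus epithelium were followed through bulk RNA sequencing of mouse cerebellum. The set held 10 genes, *Ttr*, *Kl*, *Folr1*, *Kcnj13*, *Clic6*, *Aqp1*, *Otx2*, *Sostdc1*, *Prlr* and *Slc4a5*. They were chosen by name as known markers of that cell type, and all 10 were present among the 56691 genes of the deposited table and among the 22423 genes that passed the filter on low counts. The series held 8 libraries, each from the frozen cerebellum of a single mouse aged 6 months. Mice were bred from heterozygous parents that carried the targeted allele *Atmtm1Bal*, on a mixed background, so that the gene for the kinase ATM was disrupted in every cell of the 4 *Atm*-KO mice (*Atm*-/-, mice 1M, 7F, 11M and 12M), while the 4 *Atm*-WT mice (*Atm*+/+, mice 2M, 7M, 13M and 32M) were littermates with both copies intact. No treatment is given in the labels, and brains were flushed with chilled saline through the heart before collection. The letters F and M of the labels matched the data, since *Xist* reached 70528 counts in 7F, the only female, and no more than 14 in each of the others.

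The choroid plexus is a folded tissue that hangs into the ventricles of the brain, including the fourth ventricle beneath the cerebellum. Its epithelial cells secrete cerebrospinal fluid, pass hormones and vitamins from blood to that fluid, and form the barrier between them. A dissected cerebellum can carry pieces of it, and the neurons and glia of the cerebellum itself are not the classical source of most of these genes.

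The libraries held from 65967130 to 88030300 counts. Levels are given as CPM, the counts of a gene relative to the size of its library after scaling with TMM factors, and the fewest counts of any of the 10 genes in any library was 269, for *Folr1* in *Atm*-KO mouse 1M. *Atm* itself (chromosome 9, 53348097 to 53448236, GRCm39) was still counted in *Atm*-KO mice, with no overlap between genotypes, at 59.0 to 80.0 CPM in *Atm*-WT mice and 41.1 to 51.1 CPM in the *Atm*-KO group (log2 fold change -0.66, edgeR adjusted p = 0.0775). Nothing in the labels says how the cerebellum was trimmed or whether plexus was removed.

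All 10 genes had a lower mean level in *Atm*-KO than in *Atm*-WT cerebellum, by 0.26 to 0.69 on the log2 scale, and for none of them did the difference pass the test. Within a genotype the highest mouse exceeded the lowest by 1.27- to 2.40-fold in *Atm*-WT and by 1.62- to 2.97-fold in *Atm*-KO mice, depending on the gene. *Atm*-KO mouse 1M was the lowest of the 8 mice for all 10 genes, and either *Atm*-WT mouse 2M or *Atm*-WT mouse 7M was the highest. From the lowest to the highest mouse the span was between 1.82-fold (*Otx2*) and 4.15-fold (*Slc4a5*). In bulk tissue, fewer cells of a type and less RNA per cell cannot be told apart.

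Among the carriers and hormone partners secreted into or held at the fluid, *Ttr* encodes transthyretin, which binds thyroid hormone and, together with retinol binding protein, vitamin A. *Ttr* (ENSMUSG00000061808) was at 1341, 1205, 651 and 845 CPM in *Atm*-WT mice 2M, 7M, 13M and 32M, and at 352, 799.7, 656 and 1047 CPM in *Atm*-KO mice 1M, 7F, 11M and 12M. *Atm*-KO mouse 12M thus lay above *Atm*-WT mice 13M and 32M, and the genotypes overlapped. The log2 fold change of *Ttr* was -0.50 (SE 0.293, edgeR adjusted p = 0.357). It ranked 90th of the 22423 genes tested by mean CPM.

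*Kl* encodes klotho, a membrane protein that serves as co-receptor for the hormone FGF23 and is also shed into the fluid. *Kl* (ENSMUSG00000058488, chromosome 5, 150876072 to 150917284, GRCm39) was at 110.3, 121, 64.3 and 64.6 CPM in the *Atm*-WT mice, in the same order, and at 35.9, 81.1, 63.9 and 93.6 CPM in the *Atm*-KO mice. *Atm*-KO mice 7F and 12M lay between the high and the low pair of *Atm*-WT mice. Its log2 fold change was -0.39 (SE 0.278, edgeR adjusted p = 0.451).

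*Folr1* encodes folate receptor alpha, through which folate reaches the cerebrospinal fluid. *Folr1* (ENSMUSG00000001827, chromosome 7, 101507537 to 101520014) was at 12.1, 10.7, 6.24 and 7.14 CPM in *Atm*-WT and at 3.29, 6.43, 6.15 and 7.99 CPM in *Atm*-KO mice. Only mouse 1M of the *Atm*-KO group lay well below the low pair of *Atm*-WT mice. The log2 fold change was -0.60 (SE 0.269, edgeR unadjusted p = 0.0466, adjusted p = 0.241).

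*Prlr* encodes the receptor for prolactin, which the plexus takes up from blood. *Prlr* (ENSMUSG00000005268, chromosome 15, 10177258 to 10349959) was at 40.7, 41.0, 21.9 and 20.9 CPM in *Atm*-WT and at 11.99, 30.7, 25.2 and 30.5 CPM in *Atm*-KO mice. For this gene 3 of the 4 *Atm*-KO mice lay above the low pair of *Atm*-WT mice. Its log2 fold change of -0.34 (SE 0.296, edgeR adjusted p = 0.548) had the highest adjusted p among the 10 genes.

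The transport genes act in the secretion of the fluid. *Aqp1* encodes the water channel of the apical membrane, and *Aqp1* (ENSMUSG00000004655, chromosome 6, 55313068 to 55325540) was at 13.2, 14.95, 6.31 and 6.65 CPM in *Atm*-WT and at 3.62, 7.46, 5.98 and 8.51 CPM in *Atm*-KO mice. Its log2 fold change of -0.69 (SE 0.315, edgeR unadjusted p = 0.0511, adjusted p = 0.250) was the farthest from 0 of the 10 genes, with the groups still overlapping. *Slc4a5*, which encodes a sodium bicarbonate cotransporter (ENSMUSG00000068323, chromosome 6, 83196810 to 83281927), was at 25.6, 24.9, 13.6 and 12.3 CPM in *Atm*-WT and at 6.17, 13.8, 10.7 and 17.3 CPM in *Atm*-KO mice. It differed by -0.67 on the log2 scale (SE 0.308, edgeR adjusted p = 0.249), and *Atm*-KO mouse 12M again exceeded *Atm*-WT mice 13M and 32M.

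*Kcnj13* encodes the inward rectifier potassium channel Kir7.1. *Kcnj13* (ENSMUSG00000079436, chromosome 1, 87309135 to 87322456) was at 20.2, 21.9, 9.10 and 12.5 CPM in *Atm*-WT and at 7.08, 13.5, 9.31 and 12.1 CPM in *Atm*-KO mice. *Atm*-WT mouse 13M was below 3 of the 4 *Atm*-KO mice. The log2 fold change was -0.60 (SE 0.270, edgeR unadjusted p = 0.0472, adjusted p = 0.242). Of its exonic bases, 10.7% (669 bp) lie opposite exons of *Gigyf2*. The use of strand in the counting is not given in the sources used here, so some of its counts could come from that gene. The same limit holds for *Prlr*, *Otx2* and *Ttr*, whose overlaps with exons on the opposite strand summed to 1363, 262 and 70 bp.

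*Clic6* encodes a member of the chloride intracellular channel family. *Clic6* (ENSMUSG00000022949, chromosome 16, 92282624 to 92338739) was at 50.8, 56.6, 36.1 and 31.99 CPM in *Atm*-WT and at 19.5, 37.0, 26.2 and 33.2 CPM in *Atm*-KO mice. It had the lowest p of the 10 genes, with a log2 fold change of -0.60 (SE 0.210, edgeR unadjusted p = 0.0154, adjusted p = 0.158). *Atm*-KO mouse 7F nevertheless lay above the low pair of *Atm*-WT mice.

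The remaining genes encode a secreted antagonist and a transcription factor. *Sostdc1*, whose product blocks BMP and Wnt signals (ENSMUSG00000036169, chromosome 12, 36364137 to 36368451), was at 19.6, 16.0, 9.32 and 11.1 CPM in *Atm*-WT and at 5.54, 8.76, 9.65 and 14.7 CPM in *Atm*-KO mice. Its log2 fold change was -0.54 (SE 0.284, edgeR adjusted p = 0.310), and *Atm*-KO mouse 12M lay above both low *Atm*-WT mice. *Otx2* encodes the homeobox factor that the plexus needs for its formation and upkeep. *Otx2* (ENSMUSG00000021848, chromosome 14, 48894099 to 48911276) stood apart by its narrow range, at 13.7, 16.8, 13.2 and 15.3 CPM in *Atm*-WT and 9.23, 12.9, 11.98 and 14.98 CPM in *Atm*-KO mice. The difference for *Otx2* was -0.26 on the log2 scale (SE 0.142, edgeR adjusted p = 0.321).

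**Figure D1:**
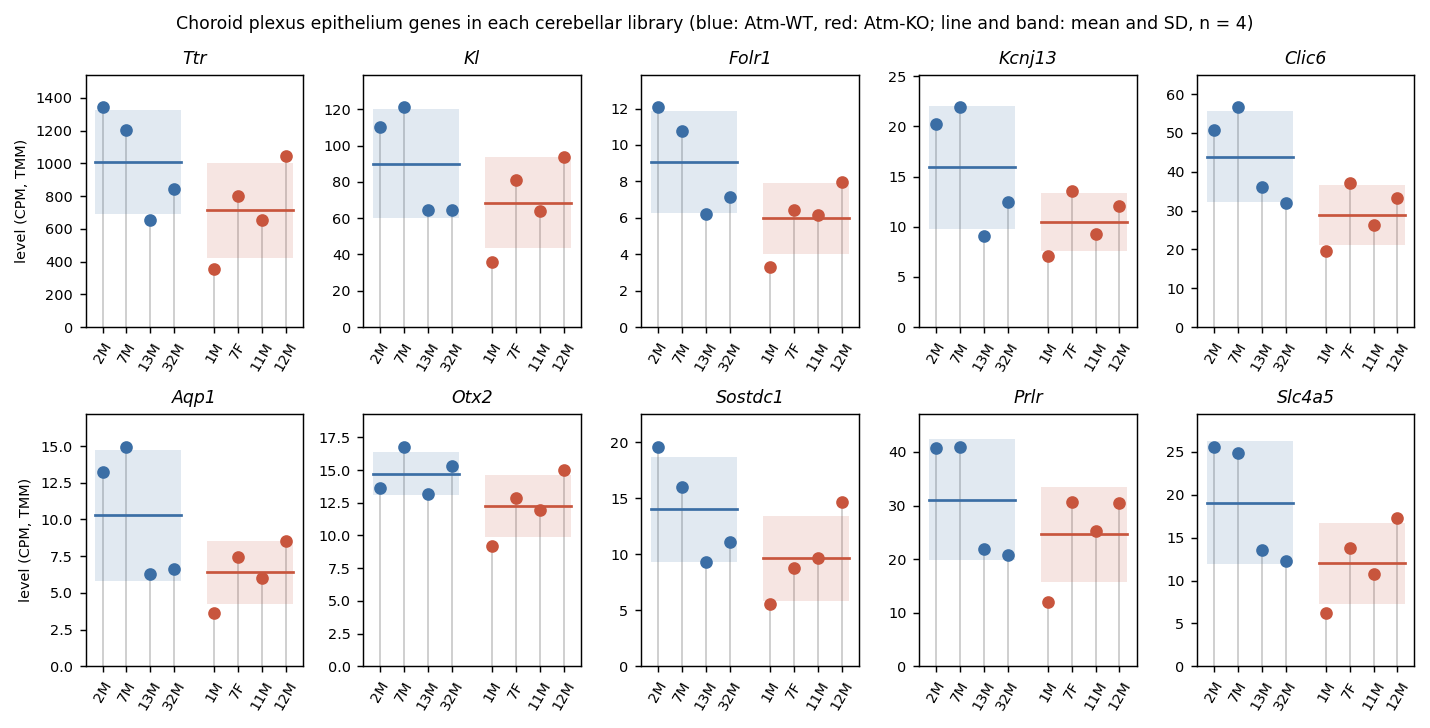
Level in CPM (y axis, starting at 0) of each of the 10 choroid plexus epithelium genes in every mouse (x axis), with *Atm*-WT in blue and *Atm*-KO in red and the line and band giving the mean and SD of 4 mice. *Atm*-KO mouse 1M is the lowest point in all 10 panels, and the genotypes overlap in each.

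By the edgeR quasi-likelihood test over 22423 genes, 0 of the 10 genes were called, which took an adjusted p under 0.05 with a log2 fold change beyond 0.5 in either direction, against 0.0178% of all genes tested (4 genes). DESeq2, which called 4.8% of the 20724 genes it gave an adjusted p (994 genes), and limma voom, which called 0.0134% (3 genes), each called 0 of the 10. Without adjustment, 3 of the 10 genes (*Folr1*, *Kcnj13* and *Clic6*) were lower in *Atm*-KO mice at a p under 0.05, a direction and level of p that 8.48% of all genes reached. For 0 of the 10 did the libraries of the genotypes not overlap, which happened for 11.6% of all genes. The median log2 fold change of the 10 genes was -0.57, beside -0.02 over all genes tested, of which 11900 were lower in *Atm*-KO mice. Since the 10 genes moved together over the same 8 mice, as shown next, their shared sign is not 10 separate observations.

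**Figure D2:**
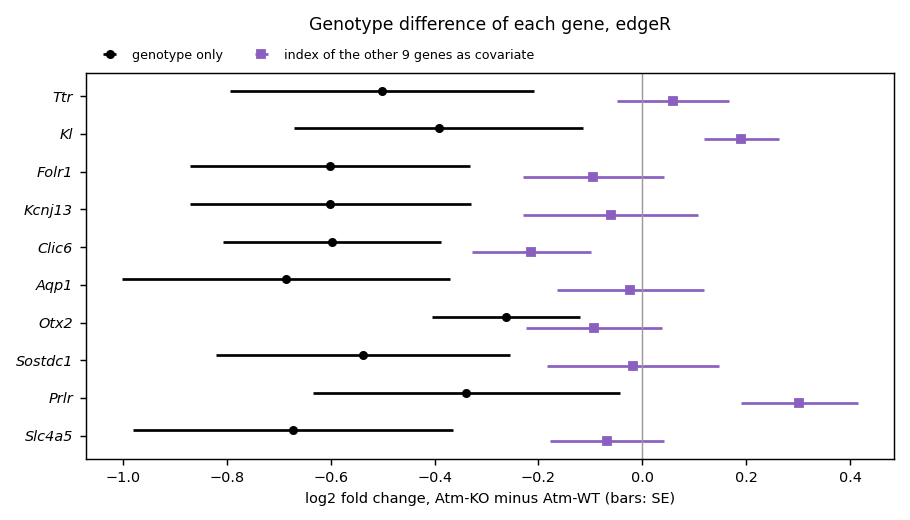
Log2 fold change of each gene, *Atm*-KO minus *Atm*-WT (x axis; bars, SE of the edgeR fit), with black points for genotype alone and purple squares for the fit with the index of the other 9 genes as a covariate. The black points run from -0.69 (*Aqp1*) to -0.26 (*Otx2*), all below 0.

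The level of the whole set was then compared between mice. For each mouse a plexus index was taken as the mean over the 10 genes of log2 CPM after centring each gene on its mean of 8 mice. The index was 0.65 and 0.67 in *Atm*-WT mice 2M and 7M, -0.19 in 13M and -0.07 in 32M. In *Atm*-KO mice it was -0.99 in 1M, 0.00 in 7F, -0.27 in 11M and 0.20 in 12M. The 2 highest mice were thus *Atm*-WT and the lowest was *Atm*-KO. The genotypes overlapped between these, and 2 of the 4 *Atm*-KO mice lay above both low *Atm*-WT mice.

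The mean index was 0.26 ± 0.46 (SD, n = 4) in *Atm*-WT and -0.26 ± 0.52 (SD, n = 4) in *Atm*-KO mice. Their difference of -0.53, equal to a ratio of 0.694 between the genotypes, was close to the pooled SD within genotypes of 0.49. It was -0.28 when *Atm*-KO mouse 1M was left out, and leaving out any other single mouse gave from -0.68 to -0.39. Without the female, mouse 7F, it was -0.61. The 10 genes summed to between 831 and 1647 CPM in *Atm*-WT mice and between 454 and 1279.7 CPM in *Atm*-KO mice. *Ttr* alone made up 77.5% to 82.2% of that sum in every mouse.

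**Figure D3:**
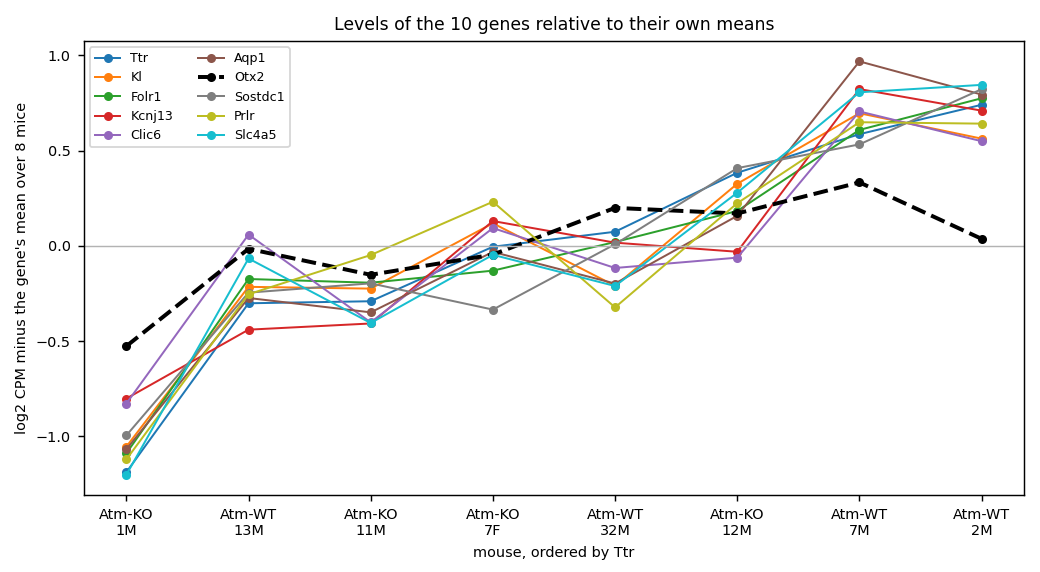
Log2 CPM of each of the 10 genes minus the gene's own mean over 8 mice (y axis) for the mice ordered by *Ttr* (x axis). The lines run nearly in parallel from *Atm*-KO mouse 1M to *Atm*-WT mouse 2M, with *Otx2* the flattest.

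The question of whether the genes vary as a unit was put to the 8 mice by setting *Ttr* against each of the other 9. Pearson's r of log2 CPM ran from 0.866 (*Otx2*) to 0.983 (*Folr1*), and all 9 passed a two-sided exact permutation test after Benjamini-Hochberg adjustment over the 9 relations (adjusted p from 4.46e-04 to 0.00806). Spearman's rho ran from 0.714 (*Clic6*, exact permutation adjusted p = 0.0576) to 0.976 (*Folr1*, exact permutation adjusted p = 0.00357), and 8 of the 9 passed by rank. For *Kl*, r was 0.968 and rho 0.929 (exact permutation p = 4.96e-04 and 0.00223). For *Aqp1*, r was 0.949 and rho 0.929 (exact permutation p = 2.48e-04 and 0.00223).

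The relations were computed again within genotypes. On deviations from the genotype means, r was between 0.822 (*Otx2*, exact permutation adjusted p = 0.0417) and 0.985 (*Folr1*, exact permutation adjusted p = 0.00938), and all 9 passed. When the 2 mice farthest from the median of *Ttr*, *Atm*-WT mouse 2M and *Atm*-KO mouse 1M, were left out, r remained above 0.87 for 7 genes. For *Clic6* it fell to 0.699 (exact permutation p = 0.107) and for *Prlr* to 0.766 (exact permutation p = 0.0764). Both relations passed with either mouse alone left out, at r of 0.782 (*Clic6*) and 0.840 (*Prlr*) without mouse 1M (exact permutation adjusted p = 0.0449 and 0.0321), so they passed only with at least 1 of the extreme mice. For *Otx2*, r was 0.886 without both mice (exact permutation adjusted p = 0.0304), 0.962 without mouse 2M alone (exact permutation adjusted p = 0.00429) and 0.636 without mouse 1M alone, where it did not pass (exact permutation adjusted p = 0.126). Over all 45 pairs of the 10 genes r ran from 0.752 to 0.983, with a median of 0.928.

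The size of the change was compared next. On the index of the other 9 genes, the slope of log2 CPM was 1.14 for *Ttr*, 1.03 for *Kl*, 1.06 for *Folr1*, 0.98 for *Kcnj13*, 1.23 for *Aqp1*, 1.02 for *Sostdc1*, 1.04 for *Prlr* and 1.26 for *Slc4a5*. *Clic6* was at 0.85 and *Otx2* at 0.38, where a slope of 1 means an equal change on the log2 scale. Per 1000 CPM of *Ttr* there were from 7.64 to 9.58 CPM of *Folr1* over the 8 mice, but from 10.2 to 26.2 CPM of *Otx2*, highest in *Atm*-KO mouse 1M, where *Ttr* was lowest. From the lowest to the highest mouse these ratios to *Ttr* spanned 1.25-fold for *Folr1*, 1.75-fold for *Clic6*, 1.74-fold for *Kcnj13* and 2.58-fold for *Otx2*, beside 3.62-fold for the sum of the 10 genes.

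A straight line of CPM on *Ttr* gave the level each gene would have at 0 CPM of *Ttr*. It was 8.74 ± 1.68 CPM (SE, n = 8 mice) for *Otx2*, which is 64.8% of the mean level of *Otx2*. For *Sostdc1* it was -0.02 ± 1.23 CPM and for *Folr1* 0.27 ± 0.66 CPM, both within their SE of 0. For *Clic6* it was 8.18 ± 6.81 CPM, or 22.4% of its mean. The line reaches far below the lowest *Ttr* level measured, 352 CPM, and is an extrapolation.

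**Figure D4:**
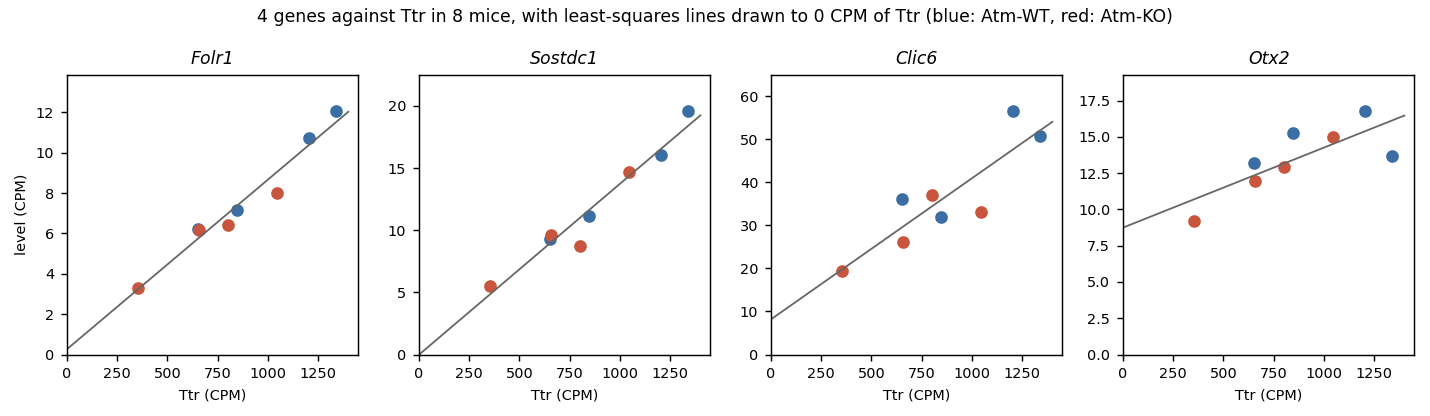
CPM of 4 genes (y axes) against CPM of *Ttr* (x axis) in 8 mice, *Atm*-WT in blue and *Atm*-KO in red, with least-squares lines drawn to 0 CPM of *Ttr*. The line of *Otx2* meets the axis at 8.74 CPM, that of *Clic6* at 8.18 CPM, and those of *Folr1* and *Sostdc1* near 0.

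When genotype was tested with the index of the other 9 genes as a covariate, the differences shrank. The log2 difference became 0.06 for *Ttr*, -0.09 for *Folr1*, -0.06 for *Kcnj13*, -0.02 for *Aqp1*, -0.09 for *Otx2*, -0.02 for *Sostdc1* and -0.07 for *Slc4a5*. *Clic6* was at -0.21 (edgeR unadjusted p = 0.0898). Besides *Ttr*, the sign turned for *Kl* (0.19, edgeR unadjusted p = 0.0242, adjusted p = 0.257) and *Prlr* (0.30, edgeR unadjusted p = 0.0223, adjusted p = 0.248), and none of the 10 passed after adjustment. The covariate differs between the genotypes, so this fit divides a shared difference between both terms.

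Levels of different genes were compared per kilobase of exon. *Ttr* was by far the highest, at a mean of 452 CPM per kilobase (184 to 703 over the mice). *Kl* followed at 8.50 (3.85 to 12.97) and *Clic6* at 8.02 (4.30 to 12.5), then *Sostdc1* at 6.64, *Aqp1* at 2.80, *Slc4a5* at 2.68, *Otx2* at 2.50, *Kcnj13* at 2.12, *Prlr* at 1.501 and *Folr1* at 1.14 CPM per kilobase. Below *Ttr*, neighbours in this order had overlapping ranges over the 8 mice. Exonic length counts every annotated isoform, which lowers the value of genes with many of them, such as *Prlr* with 18561 bp.

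Because the genes moved together, the windows around their transcription starts were searched for 2 short words. These were the OTX core TAATCC (reverse GGATTA), which OTX2 is known to bind, and the TATA box word TATAAA (reverse TTTATA). RefSeq windows of 300 bases (GRCm38.p6, a different build from the positions above) were matched for 6 of the 10 genes, in 11 windows, with no entry for *Ttr*, *Folr1*, *Clic6* and *Sostdc1*. The OTX core was in 1 of 11 windows, that of *Otx2* itself, and in 7.06% of 32851 windows of all genes. The TATA word was in 3 of 11, against 13.6% of all. The 30 bases around each match are shown 5′ to 3′ on the gene's strand, with the word in capitals. A match is a description of letters and says nothing on binding.
*Otx2*, OTX core, chr14:48665303-48665332, minus strand: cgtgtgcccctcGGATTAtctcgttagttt
*Otx2*, TATA word in another window, chr14:48667819-48667848, minus strand: gataagaaggagTATAAAggaagaagaaaa
*Kcnj13*, TATA word, chr1:87394741-87394770, minus strand: cctcacggacatTATAAAcacaggaatgta
*Slc4a5*, TATA word, chr6:83237236-83237265, plus strand: ccagccccagccTTTATAaggagcctgaga
The word of *Kcnj13* began 29 bases before its annotated start, the usual place of a TATA box, while that of *Slc4a5* began 127 bases and that of *Otx2* 192 bases before theirs.

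Other genes known for the same epithelium were listed by hand, and 22 of 39 had an r over 0.9 with the index. Of 40 such genes 39 were tested (*Cox8b* was not, with 91 counts in all), and 38 were lower in *Atm*-KO mice with a median log2 fold change of -0.41. By edgeR 0 of the 39 were called, 7 were lower at an unadjusted p under 0.05 (beside 8.48% of all genes tested), and DESeq2 and limma voom called 0. Over all 22423 genes tested, 11900 were lower. The mean of their centred log2 CPM had an r of 0.995 with the plexus index over the 8 mice, given as a description. Among the 37 with a mean of at least 1 CPM, 21 had an r over 0.9, beside 0.572% of the 15729 genes outside the 10 at that level. Of the 39, 17 had an r of at most 0.9, down to an r of 0.029 for *Rdh5*, 0.241 for *Htr2c*, 0.329 for *Abcb4*, 0.453 for *Slc5a3* and 0.590 for *Cab39l*. The median slope of the list was 0.74, and 15 of the 39 had a slope under 0.5, of which 4 had an r over 0.9. *Enpp2*, which encodes autotaxin and was the most abundant of them, was at 1013 ± 328 CPM in the *Atm*-WT group and 731 ± 207 CPM in the *Atm*-KO group (SD, n = 4 each; edgeR adjusted p = 0.300). *Trpm3* (672 ± 78.7 against 643 ± 42.8 CPM), *Slc5a3* (187 ± 52.7 against 183 ± 15.2 CPM) and *Vat1l* (126 ± 13.4 against 117 ± 12.5 CPM), the next in abundance, had slopes of 0.18 to 0.21 on the index.

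The 15 genes most like the index, among those outside the 10, had r from 0.969 to 0.990. Of these 15, *Mfrp*, *Enpp2*, *Col8a1*, *Cldn2*, *Abca4*, *Lbp*, *Car12*, *Krt18* and the TEC transcript *Gm44250* (TEC marks transcripts awaiting experimental proof) had slopes of 0.93 or more, as most of the 10 genes did. *Mfrp*, a frizzled-related membrane protein, had the steepest slope (1.77) and a 7.90-fold range, from 2.39 CPM in *Atm*-KO mouse 1M to 18.9 CPM in *Atm*-WT mouse 7M. *Cldn2*, a claudin of leaky tight junctions, ranged from 3.28 to 12.98 CPM and *Enpp2* from 453 to 1326 CPM, both lowest in *Atm*-KO mouse 1M and highest in *Atm*-WT mouse 2M. *Calml4* and *Slc13a4* lay in between, with slopes of 0.68 and 0.52. *Slc4a2* (0.38), *Sulf1* (0.37), *Sgms2* (0.46) and *Arid1b* (0.25) followed the index with shallow slopes, as *Otx2* did. In all, 35 of the 90 genes with an r over 0.9 had a slope over 0.5, and 17 of those 35 were on the list of other plexus genes.

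**Figure D5:**
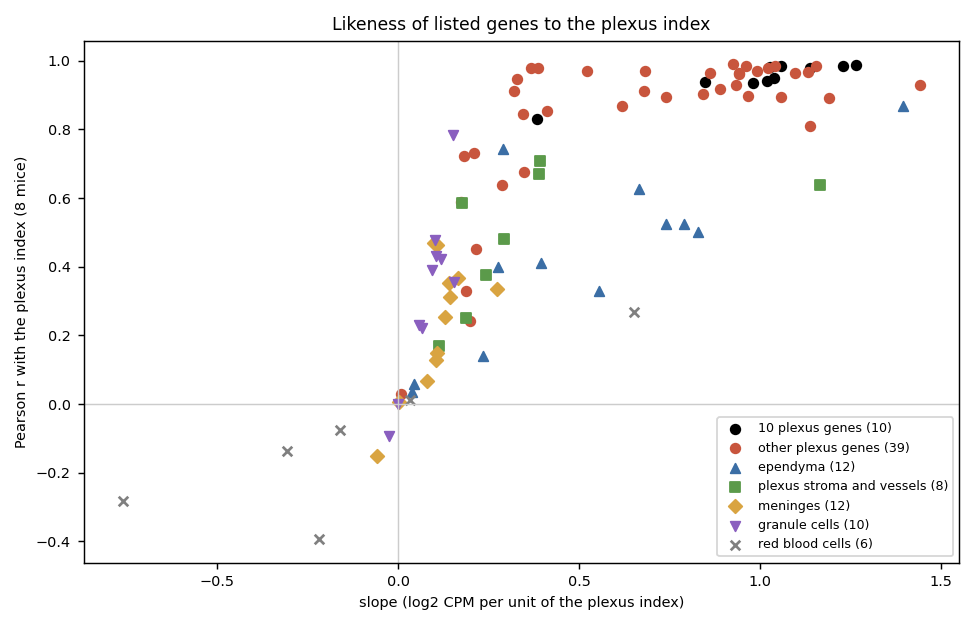
Pearson r with the plexus index over 8 mice (y axis) against the slope of log2 CPM on the index (x axis) for the genes of each list. Of the 39 other plexus genes 22 lie above an r of 0.9, and 15 have a slope under 0.5, only 4 of these with an r over 0.9.

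Partners of the 10 genes are the ligands, receptors and carriers their products work with. Of 26 tested, 20 were lower in *Atm*-KO mice (median log2 fold change -0.18), 0 were called by edgeR, and 5 were lower at an unadjusted p under 0.05 (beside 8.48% of all genes tested). An r with the index over 0.9 was reached by 2 of the 26, among them *Stra6*, the receptor for retinol binding protein (r = 0.915). The mean of the list had an r of 0.878 with the plexus index, while the median r of its genes was 0.447. DESeq2 called 1 gene of the list and limma voom 0 (beside 4.8% and 0.0134% of all genes). The most abundant partners were *Lrp6* (193 ± 22.6 CPM in *Atm*-WT, 176 ± 6.18 CPM in *Atm*-KO), *Fgfr1* (167 ± 18.5 and 178 ± 16.2 CPM), *Fgfr2* (104 ± 10.04 and 98.2 ± 5.51 CPM) and *Stat5b* (90.1 ± 3.22 and 82.7 ± 4.03 CPM), each with n = 4 and SD. *Prl*, the ligand of *Prlr*, had 28 counts over all libraries and was not tested.

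Genes of water, ion and bicarbonate movement that brain tissue also uses stayed closer to 0. Of 18 tested, 13 were lower (median log2 fold change -0.08), 0 were called by edgeR, and at an unadjusted p under 0.05 there were 2 lower and 2 higher (each 2 of 18, beside 8.48% lower and 11.7% higher over all genes tested). The sodium pump subunit *Atp1b1* was at 1281 ± 82.6 CPM in the *Atm*-WT group and 1209 ± 94.9 CPM in the *Atm*-KO group (SD, n = 4 each), with an r of -0.075 with the index. The bicarbonate transporter *Slc4a4* was at 1124 ± 124 and 1055 ± 72.9 CPM, with an r of 0.651. None of the 18 reached an r of 0.9.

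Markers of neighbouring tissue were read beside the index. For ependymal cells, which line the ventricle with cilia, 13 of 14 listed genes were in the table and 12 were tested (*Mia*, with 24 counts, was not). Of the 12, 11 were lower in *Atm*-KO mice (median log2 fold change -0.56), 3 at an unadjusted p under 0.05 (beside 8.48% of all genes tested) and 0 called by edgeR. Their summed level ran from 24.5 to 42.4 CPM in *Atm*-WT mice and from 25.0 to 32.5 CPM in the *Atm*-KO group, and their median r with the index was 0.456, with 0 of 12 over 0.9. The mean of the list had an r of 0.638 with the index. *Foxj1*, the master regulator of motile cilia, was at 8.62 ± 2.89 CPM in the *Atm*-WT group and 5.72 ± 1.76 CPM in the *Atm*-KO group (SD, n = 4 each; edgeR adjusted p = 0.258). *Hydin* was at 13.5 ± 1.43 and 13.7 ± 2.76 CPM.

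For the vessels and stroma of the plexus, 6 of 8 genes were lower (median log2 fold change -0.37), 2 at an unadjusted p under 0.05 (beside 8.48% of all genes tested) and 0 called by edgeR, with sums of 88.5 to 115 CPM in *Atm*-WT mice and 78.2 to 102 CPM in the *Atm*-KO group. DESeq2 called *Igfbp6* of this list (log2 fold change -0.55, DESeq2 adjusted p = 0.00138), while its adjusted p by edgeR was 0.0938. The collagen genes had log2 fold changes of -0.03 to 0.28, with *Col1a2*, the most abundant of the list, at 34.6 ± 3.93 and 33.8 ± 4.10 CPM, *Col1a1* at 13.9 ± 4.61 and 16.8 ± 4.56 CPM and *Col3a1* at 6.16 ± 2.204 and 6.67 ± 0.51 CPM in *Atm*-WT and *Atm*-KO mice (SD, n = 4 each). *Dcn*, encoding the matrix protein decorin, was at 26.7 ± 1.80 CPM in the *Atm*-WT group and 19.3 ± 2.70 CPM in the *Atm*-KO group (SD, n = 4 each; edgeR adjusted p = 0.0931). The mean of the list had an r of 0.834 with the plexus index.

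Markers of meningeal fibroblasts were lower for 8 of 12 genes (median log2 fold change -0.09, sums of 132 to 155 CPM against 117 to 149 CPM), with 0 at an unadjusted p under 0.05 and 0 called by edgeR, and their mean had an r of 0.378 with the index. Red blood cell genes were higher in *Atm*-KO mice for 6 of 6 (median log2 fold change 0.52, sums of 7.01 to 44.4 CPM against 9.11 to 50.9 CPM), with 0 at an unadjusted p under 0.05 and 0 called, and their mean had an r of -0.065. Cerebellar granule cell genes, which check the labelled tissue, summed to between 5879.6 and 7571 CPM over the 8 mice, the 10 genes having a median log2 fold change of 0.05 and 0 called. Of 15 markers of hindbrain outside the cerebellum, the 10 Hox genes had at most 48 counts each over all libraries and were not tested, while 0 of the other 5 were called and 1, *Slc6a4*, was higher at an unadjusted p under 0.05 (beside 11.7% of all genes tested). The median log2 fold change of these 5 was 1.92, and the mean of their centred log2 CPM was 1.38 in *Atm*-KO mouse 7F and 1.52 in *Atm*-KO mouse 11M, against -1.38 to 0.30 in the other 6 mice. *Chat* had a log2 fold change of 1.92 and *Dbh* of 2.04, with 4.56 CPM of *Dbh* in mouse 7F. *Slc6a4* was at 3.53 CPM in *Atm*-KO mouse 11M, between 0.266 and 0.387 CPM in the remaining 3 of that genotype and between 0 and 0.322 CPM in *Atm*-WT mice, so that 1 library set its difference. The mean of the 5 genes had an r of -0.189 with the plexus index. The part of these tissues in the levels of the 10 genes was not tested.

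With the plexus index as a covariate for all genes, 0 genes were called by edgeR in place of 4, with 3683 in place of 4524 at an unadjusted p under 0.05. The index differed between the genotypes by -0.53, so this fit too divides a shared difference between both terms. Without the covariate, the number called also fell to 1 on leaving out *Atm*-KO mouse 1M. The reason for the lower numbers was not tested.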

How the data were processed

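Total RNA of 8 cerebella was sequenced through Novogene. Per the labels and the submitters' processing notes, the authors checked reads with FastQC 0.11.9, aligned them with STAR to GRCm39 under the GENCODE Release 28 annotation, counted them per gene with featureCounts, and deposited raw counts without normalization. Strand and read pair settings are not given in the sources used here. Of the low counts, 67.3% to 73.3% per library were even, so a count may be a read or a fragment. Identifiers were matched without version to GENCODE vM39 (56017 of 56691 genes), which gave symbols, positions and exonic lengths.

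The labelled genotype set the groups, 4 libraries in each, and none was left out. The genotype test was that of edgeR 4.0.16, run in R 4.3.3 (filterByExpr, TMM, glmQLFit, glmQLFTest, Benjamini-Hochberg adjustment over 22423 genes, no covariate), and a gene was called at an adjusted p under 0.05 with a log2 fold change beyond 0.5 in either direction. Log2 CPM used a prior count of 2. DESeq2 1.42.0, limma 3.58.1 (voom), other normalizations, filters, halved counts, and each library left out in turn were alternatives. The index of the other members as a covariate, the line on *Ttr* and the slope on the index were chosen after seeing the data. Each mouse gave 1 library, so that p-values cover the spread between these mice. Scripts were tested on simulated data. Named genes were the 10 members, listed genes past the thresholds, the 15 genes most like the index, and up to 4 of the most abundant of each list, and a few of these are not reported here singly. *Stra6*, *Cox8b*, *Mia*, *Prl*, *Slc6a4*, *Chat*, *Rdh5*, *Htr2c*, *Abcb4* and *Cab39l* were named for their counts or roles after their values were seen. Members and lists were chosen with earlier results of these data known.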

Additional observations from a re-analysis of the deposited data

Results flagged for a closer look

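The mean of the granule cell genes stood apart in 1 mouse. In *Atm*-KO mouse 12M the centred log2 mean of the 10 granule cell genes was 0.23, while the other *Atm*-KO mice lay between -0.09 and -0.05. The gap to the nearest mouse was 0.866 of the whole range of the 4. Among 60 groups of 4 mice looked at in this way, chance alone gives about 3 such gaps, and this was the only one. None of the 10 plexus genes had such a mouse in either genotype.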

How the results depend on the processing

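For the 10 plexus genes, the number called stayed at 0 under every alternative run between genotypes, as it did for the 39 other plexus genes tested. Their log2 fold changes kept their sign in all 15 of the other fits that kept genotype as the only term, with the lowest adjusted p at 0.0679 (*Clic6*, no filter on low counts). Without *Atm*-KO mouse 1M the difference was -0.28 for *Ttr*, -0.18 for *Kl*, -0.40 for *Folr1*, -0.15 for *Otx2*, -0.35 for *Sostdc1* and -0.11 for *Prlr*, each closer to 0 by more than 1.5 times. The same held for *Aqp1* (-0.45), *Kl* (-0.22) and *Prlr* (-0.18) without *Atm*-WT mouse 7M and for *Prlr* (-0.18) and *Sostdc1* (-0.33) without *Atm*-WT mouse 2M, while *Sostdc1* was at -0.81 without *Atm*-KO mouse 12M. With the index of the other members as a covariate, *Ttr* turned to 0.059, *Kl* to 0.19 and *Prlr* to 0.30. The number of genes called over the whole table, 4, became 994 with DESeq2, 435 without a filter on low counts, 2 with at least 10 counts in every library and 0 with the plexus index as a covariate, and ran from 1 to 27 when each library was left out: 1 without *Atm*-WT mouse 2M, *Atm*-KO mouse 1M or *Atm*-KO mouse 11M, 2 without *Atm*-WT mouse 7M, 9 without *Atm*-WT mouse 32M and 27 without *Atm*-WT mouse 13M. The cause was not tested. The index difference of -0.53 ran from -0.56 to -0.48 under other scalings and choices of genes and from -0.68 to -0.28 with a mouse left out. No paired analysis was possible because the labels do not say which mice came from the same litter. The genotypes share 1 replicate number, 7, which the labels do not call a pair. With 4 mice per genotype and an SE of 0.14 to 0.32 on the log2 scale, differences of the size seen here were not detectable after adjustment.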
